A study of Mus musculus with 24 samples.

Results

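Expression of 10 genes that encode muscle myosin heavy and light chains, with the myosin-binding protein gene Mybph, was followed in C2C12 cells, an established line of mouse myoblasts that can fuse into myotubes. The members were the 15 probe sets that the platform annotation assigns to Myh1, Myh3, Myh7, Myh8, Myl1, Myl2, Myl3, Myl4, Mylpf or Mybph and to no other gene, of 22690 probe sets in the table and 20380 assigned to 1 of 12393 genes. The series asks how loss of cilia bears on myoblast quiescence, and its cells received siRNA against IFT88 (IFT88KD) or a negative control siRNA (control). IFT88 belongs to the intraflagellar transport machinery on which cilium assembly depends. Both siRNAs were studied in 4 states. Cells proliferated on a surface in medium with 20% fetal bovine serum (FBS), became quiescent in suspension in the same medium, or were replated from suspension onto a surface for 2 h. Differentiating cells were switched at 80% confluence to medium with 2% NHS for 48 h. Each of the 8 groups held 3 arrays, and nothing in the labels says that these came from separate cultures, so p-values measure the spread between these samples only.

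Skeletal muscle myosin is a hexamer of a pair of heavy chains, which carry the motor and the filament-forming tail, and of essential and regulatory light chains bound to the neck. Isoforms are exchanged during development and between fibre types: Myh3 encodes the embryonic and Myh8 the neonatal heavy chain, Myh7 the slow and cardiac beta heavy chain, and Myh1 a fast adult heavy chain. Myl1 encodes the fast essential light chains and Mylpf the fast regulatory light chain, Myl4 the embryonic and atrial essential light chain, and Myl2 and Myl3 the slow and ventricular regulatory and essential light chains. Mybph encodes a thick filament protein related to the myosin-binding protein C family. C2C12 cells express embryonic isoforms early in differentiation, and myogenic factors of the MyoD and MEF2 families act on many of these genes through E-boxes and A/T-rich sites.

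The promoters of 4 members are shown because the genes they drive behaved differently in these cells. Myh3 and Mylpf were high in differentiating cultures, and Myh8 left the floor of the arrays in these cultures only, at lower levels. Myh1 had the largest change with IFT88 siRNA in quiescent cells. Each stretch runs 5′ to 3′ from 250 bases before to 50 bases after a RefSeq transcript start on GRCm38.p6, and capitals mark matches to the E-box CANNTG or to the MEF2 consensus, both searched on both strands.
Myh1 (chr11:67199852-67200151, + strand): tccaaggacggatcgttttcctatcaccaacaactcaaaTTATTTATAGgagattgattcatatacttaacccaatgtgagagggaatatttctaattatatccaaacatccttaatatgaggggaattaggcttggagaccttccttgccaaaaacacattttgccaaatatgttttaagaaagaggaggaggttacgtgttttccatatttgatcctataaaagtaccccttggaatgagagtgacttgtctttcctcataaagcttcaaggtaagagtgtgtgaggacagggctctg
Myh8 (chr11:67276874-67277173, + strand): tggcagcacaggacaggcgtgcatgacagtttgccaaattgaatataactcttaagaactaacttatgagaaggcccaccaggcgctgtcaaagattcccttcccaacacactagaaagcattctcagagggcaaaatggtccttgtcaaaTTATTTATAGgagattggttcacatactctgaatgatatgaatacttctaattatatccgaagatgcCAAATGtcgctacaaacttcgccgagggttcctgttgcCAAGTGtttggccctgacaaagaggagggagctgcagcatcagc
Myh3 (chr11:67078050-67078349, + strand): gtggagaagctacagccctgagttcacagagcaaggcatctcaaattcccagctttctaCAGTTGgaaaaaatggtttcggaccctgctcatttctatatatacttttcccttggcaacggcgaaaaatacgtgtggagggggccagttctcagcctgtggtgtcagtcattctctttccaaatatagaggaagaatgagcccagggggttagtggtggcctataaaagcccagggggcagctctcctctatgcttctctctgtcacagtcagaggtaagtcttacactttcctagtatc
Mylpf (chr7:127211358-127211657, + strand): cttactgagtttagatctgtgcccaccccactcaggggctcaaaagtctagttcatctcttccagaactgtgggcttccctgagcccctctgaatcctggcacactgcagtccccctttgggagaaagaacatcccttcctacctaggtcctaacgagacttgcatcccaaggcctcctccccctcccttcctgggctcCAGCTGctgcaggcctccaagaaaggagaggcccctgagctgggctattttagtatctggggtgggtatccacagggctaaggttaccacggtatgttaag

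All 10 genes had an entry in the RefSeq promoter table, with 12 windows of 300 bases in all. The MEF2 consensus was found in the windows of Myh1 and Myh8 and in no other member, against 3.2% of all 32851 promoters. In Myh1 it began 211 bases and in Myh8 99 bases before the start. Around it the windows of these chromosome 11 genes shared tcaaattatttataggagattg, a run of 22 bases. The longest run shared by any other of the 45 pairs of members was 11 bases, with only the first listed window of each gene compared. The E-box CANNTG was present in 8 of the 10 genes, all but Myh1 and Myl4, and in 72.3% of all promoters. Its form CAGCTG, which overlaps CANNTG by definition, was present in Myl1, Mylpf, Myl2 and Mybph and in 16.3% of all promoters. Another MEF2 pattern, CTA and TAG separated by any 4 bases, is freer than the consensus in the middle but stricter at its ends. It was in 0 of the 12 windows and in 3.7% of promoters. The consensus matches of Myh1 and Myh8 begin with T and so fall outside it. The MCAT motif CATTCC, a site type known for TEAD factors, was found in Myh1, Myh7, Myl1, Myl3 and Mybph and in 14.7% of promoters. The loose CArG form, CC and GG separated by any 6 bases, was in 7 members and 73.3% of promoters, and the CArG consensus in Myl3 alone among the members and in 1.6% of promoters. These matches describe the letters of the windows only.

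Values were log2 expression levels, and a probe set was tested if it lay above the 40th percentile of its array on at least 3 of the 24 arrays. In the quiescent state the Ift88 transcript fell by 0.69 log2 with its siRNA (SE 0.16, limma adjusted p = 0.0156). It was lower by 0.59 in replated cells (adjusted p = 0.0682, and 0.0132 with arrays of equal replicate number paired). In proliferating cells its change was -0.52 (adjusted p = 0.398, and 0.0646 paired). In differentiating cells Ift88 was 3.80 ± 0.11 log2 in control and 3.79 ± 0.25 in arrays labelled IFT88KD (SD, n = 3), so its mRNA does not separate the 2 labels in that state. All 6 skeletal muscle markers, among them Des, Myod1 and Myog, were above the 40th percentile on every array, and 0 of the 6 cardiac markers reached it on all arrays of any group. Arrays of a group correlated at 0.991 or more, and the median signal was 2.96 log2 on replated arrays against 3.60 to 3.82 in the other groups.

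Of the 15 member probe sets, 10 of 8 genes passed the filter. The 5 that did not were the probe set of Myl2, all 3 probe sets of Myl3 and 1 of the 3 probe sets of Myh1. Myl2, the slow regulatory light chain gene, lay between 0.83 and 1.53 log2 on the 18 arrays outside differentiation. On differentiating arrays it measured 2.13, 2.14 and 2.61 in control and 2.47, 1.96 and 1.84 in IFT88KD cells, and only 2 of these 6 arrays were above the 40th percentile. In a fit with no filter the change of Myl2 from proliferating to differentiating control cells was 1.03 log2 (SE 0.17, adjusted p = 4.0e-05). Myl3, the slow essential light chain gene, stayed under the 40th percentile on all 24 arrays by each of its 3 probe sets, and its leading probe set ranged from 1.44 to 2.23 log2. Probe sets that passed only through the state in which they are high, Myh8 and the second probe set of Myl4, had to differ between states.

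The largest changes of the myosin genes came with differentiation. All 10 tested probe sets rose from proliferating to differentiating control cells, where 22.9% of all 13866 tested probe sets rose, with a median change of 5.44 log2 for the members and -0.07 for all. For Myh8 and the second probe set of Myl4 the filter fixed this direction, as they passed it on differentiating arrays only. By their leading probe sets Mybph, Myl4, Myh7 and Myh3 rose by 6.49 to 7.34 log2, Myh1, Myl1 and Mylpf by 5.08 to 5.39, and Myh8 by 3.06. The second probe set of Myl4 rose by 3.56 and that of Myh1 by 5.49. These cultures are bulk samples, so more cells that express a gene and more RNA per cell cannot be told apart.

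Myh3, the embryonic heavy chain gene, measured 2.85, 5.12 and 6.33 log2 on the proliferating control arrays and 11.41, 11.19 and 11.17 on the differentiating control arrays. The lowest differentiating array was far above the highest proliferating one, and the change was 6.49 log2 (SE 0.64, limma adjusted p = 4.9e-08). Myh7, the slow heavy chain gene, went from 1.58, 2.15 and 3.11 to 9.25, 8.95 and 8.71, a change of 6.69 log2 (SE 0.41, adjusted p = 4.0e-11). The groups were apart for both heavy chain genes. Myh1, the fast heavy chain gene, went from 1.18, 1.47 and 1.71 to 6.79, 6.54 and 7.09, a change of 5.36 log2 (SE 0.44, adjusted p = 4.6e-09), with 0 of the 3 proliferating control arrays above the 40th percentile. Myh8, the neonatal isoform, measured 1.07, 1.09 and 1.13 on proliferating and 4.17, 3.63 and 4.67 on differentiating control arrays. It was above the 40th percentile on differentiating arrays only, so its rise of 3.06 log2 (SE 0.23) starts from the floor of the arrays. Since Myh8 passed the filter through these arrays alone, no p-value is given for the rise.

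Among the light chains, the leading probe set of Myl4, the embryonic gene, had the largest rise, 7.11 log2 (SE 0.53, adjusted p = 8.8e-10), from 2.85, 4.53 and 5.54 to 11.56, 11.39 and 11.31. Myl1 measured 4.04, 5.87 and 7.22 on proliferating and 11.25, 10.98 and 11.07 on differentiating control arrays. Mylpf measured 4.94, 6.80 and 8.15 and then 11.90, 11.65 and 11.58. Both fast light chain genes were above the 40th percentile in every group, and their rises were 5.39 (SE 0.57) and 5.08 (SE 0.57) log2, with adjusted p at 1.3e-07 and 2.8e-07. Mybph had the largest change of all members, 7.34 log2 (SE 0.60, adjusted p = 4.0e-09). Its control arrays moved from 1.61, 3.38 and 4.76 to 10.78, 10.46 and 10.54.

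**Figure D1:**
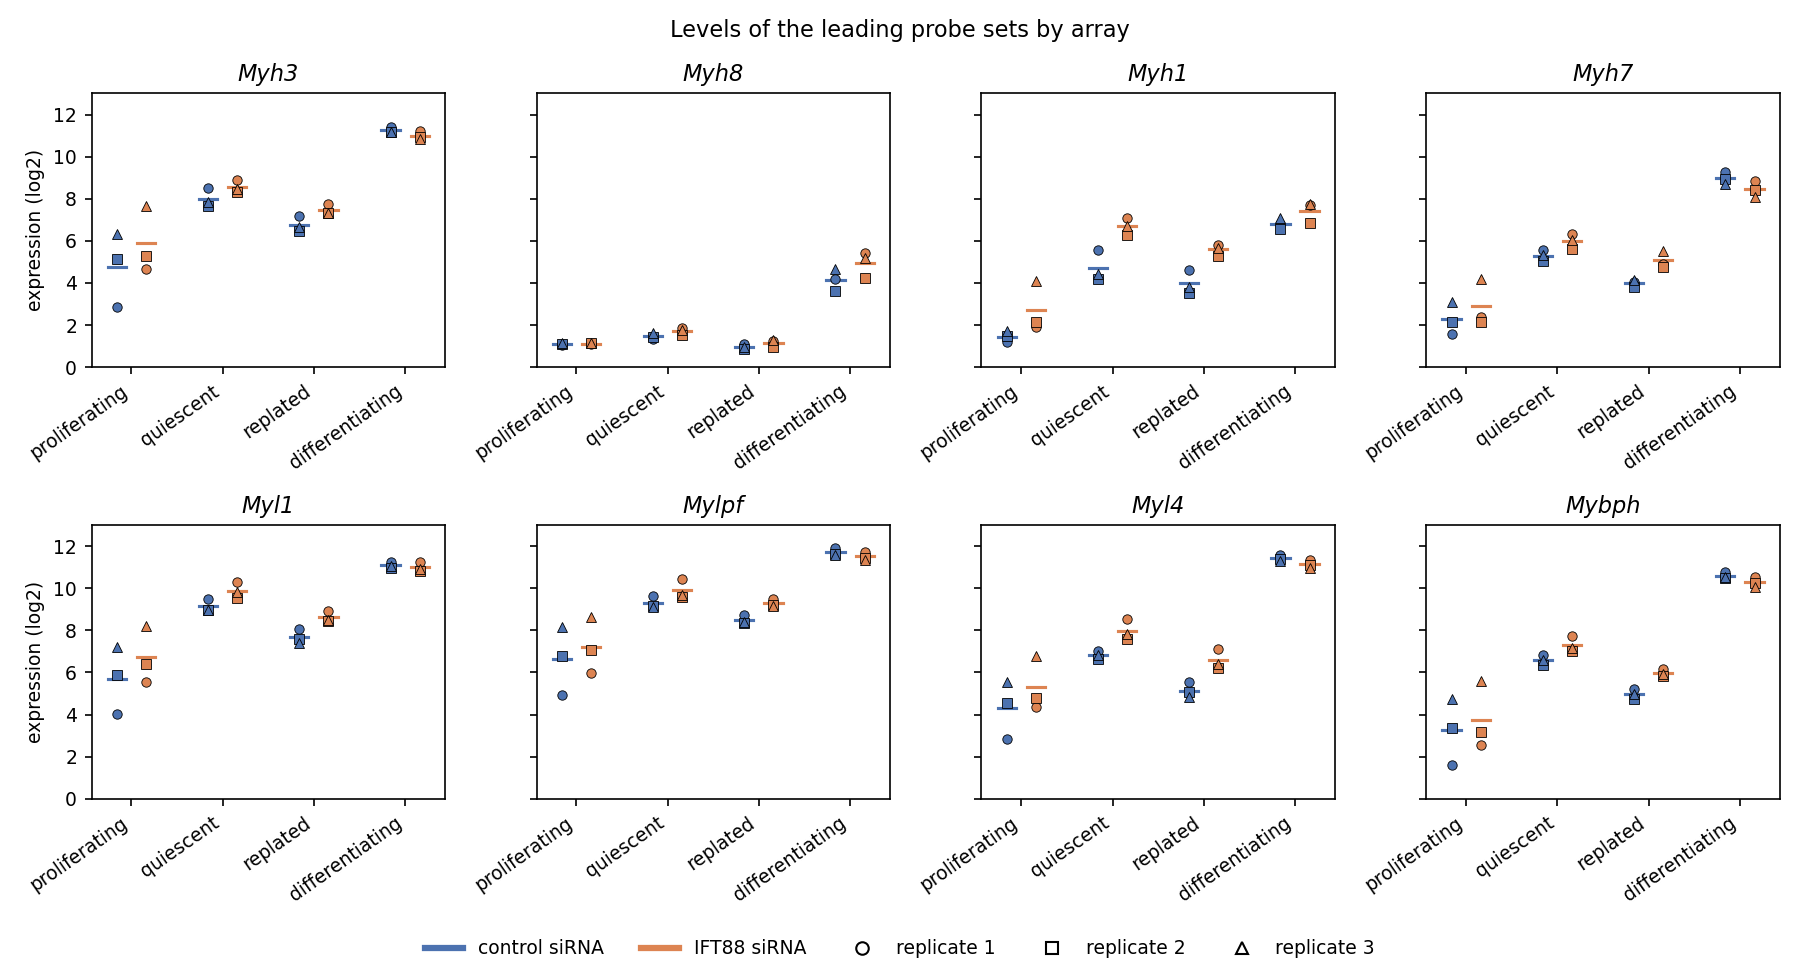
Log2 expression (vertical axis) of the leading probe set of each tested member on every array, by culture state (horizontal axis), with control siRNA in blue, IFT88 siRNA in orange, a symbol for each replicate number and a bar at the group mean. Proliferating arrays spread widely, from 2.85 to 6.33 log2 for Myh3 in control cells, and all differentiating arrays of a gene lie above all of its proliferating arrays.

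Quiescent control cells already held part of this rise. From proliferating to quiescent cells 9 of 10 member probe sets rose, where 38.7% of all tested probe sets rose. Myl1 rose by 3.44, Mybph by 3.35, Myh1 by 3.28, Myh3 by 3.24, Myh7 by 3.02, Mylpf by 2.67 and Myl4 by 2.52 log2. The change of Myh8 was 0.36 log2 (SE 0.23, adjusted p = 0.176), and it stayed under the 40th percentile on all quiescent arrays. Myh3 measured 8.51, 7.67 and 7.84 log2 in quiescent control cells, above the highest proliferating control array by more than 1 log2. Set against the change to differentiation on the log2 scale, the quiescent change was 63.9% of it for Myl1 and 61.2% for Myh1. It was 52.5% for Mylpf, 49.95% for Myh3, 45.6% for Mybph, 45.2% for Myh7, 35.4% for Myl4 and 11.8% for Myh8. Each of these shares compares 2 changes that share the proliferating control arrays. For Myh1 and Myh8, with 0 of those 3 arrays above the 40th percentile, the changes start from the floor of the arrays and the shares are not exact. For Myh7 only 1 of those arrays was above it, and for Mybph 2. Over the same arrays the members had a median range of 2.92 log2. The other shares and the order of the genes are thus not exact either. From quiescent to differentiating control cells all 10 probe sets rose (26.2% of all tested), from 1.95 log2 for Myl1 to 4.60 for Myl4. For Myh8 and the second probe set of Myl4 the filter again fixed the direction.

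Cycling markers moved the other way on entry into quiescence, with all 5 lower at a median of -5.21 log2 (Mki67, Top2a, Cdk1, Birc5 and Ube2c). Skeletal muscle markers did not rise as a list: of 6 tested, 3 were lower and 1 higher, at a median of -0.70 log2. Markers of other cell types also moved in the same comparison. Of 4 tested smooth muscle markers 3 were lower and 1 higher (median -1.72). All 4 tested fibroblast markers were higher (median 3.26) and all 3 tested macrophage markers were higher (median 1.73), with the mean level of the macrophage list at 3.56 to 3.63 in quiescent and 2.11 to 2.18 in proliferating control arrays. Of the 5 listed macrophage markers 3 were above the 40th percentile on all quiescent control arrays and 1 on all proliferating ones. Their part in the myosin values was not tested.

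Replating for 2 h came with lower values, on arrays whose whole scale was lower. The median of all tested probe sets changed by -0.57 log2 from quiescent to replated control cells. Of the members, 6 of 10 probe sets fell, where 63.3% of all tested probe sets fell, so the count of members stands near the background. Relative to that median, Myl4 was lower by a difference of -1.11 log2, Mybph of -1.06, Myl1 of -0.90, Myh7 of -0.75 and Myh3 of -0.69, while Mylpf was at -0.24, Myh1 at -0.17 and Myh8 at 0.08. With quantile normalisation of all arrays 0 members passed the limma test, and with each array centred on its median only the second probe set of Myl4 passed, in the upward direction. With each array centred on its median Myh1, Myh8 and Mylpf also changed sign (0.12, 0.37 and 0.05 log2), and Myh1 did with quantile normalisation (0.02). Pairing by replicate number brought the members that fell to 8, where 64.7% of all fell, adding Myh8 (adjusted p = 0.0228) and the leading probe set of Myh1 (adjusted p = 0.0380).

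Placed in order of their means over the 8 groups, 7 of the 8 tested members were lowest in proliferating control and highest in differentiating cells. For Myh3, Myh7, Myl1, Mylpf, Myl4 and Mybph the differentiating control group was the highest, and it overlapped the differentiating IFT88KD group next to it. For Myh1 and Myh8 the order of these 2 groups was turned, again with overlap. Mybph in quiescent IFT88KD cells, at 7.31 ± 0.39 log2 (SD, n = 3), did not overlap quiescent control cells, at 6.604 ± 0.25, nor did replated IFT88KD cells, at 5.95 ± 0.17, overlap replated control cells, at 4.98 ± 0.22. The proliferating groups overlapped each other for 7 of these 8 genes. The exception was Myh1, whose proliferating control arrays all lay below the IFT88KD arrays.

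Proliferating arrays of a group differed more in the myosin genes than in the median probe set. The range over 3 arrays had a median of 2.92 log2 for the members in control and 2.53 in IFT88KD proliferating cells, against medians of 0.29 and 0.30 for all tested probe sets. In the other 6 groups the member median was 0.32 to 0.76. The spread was not particular to myosins: on proliferating control arrays Tnnc2 ranged from 2.87 to 6.90 log2 (SD 2.05, n = 3), Myog had an SD of 1.92 and Casq2 of 1.18, against 1.77 for Myh3. In control cells replicate 1 was the lowest and replicate 3 the highest for all 8 leading probe sets, and in IFT88KD cells replicate 3 was the highest for 7 of 8. The arrays of equal number thus moved together between the siRNAs. Over all tested probe sets, deviations of equally numbered IFT88KD and control arrays correlated at 0.124 or more in every state. Unequally numbered arrays correlated at 0.113 at most in proliferating, 0.0982 in quiescent and 0.0724 in differentiating cells, but at up to 0.233 in replated cells, above the lowest equal pair there. Since this spread enters the error of every unpaired comparison of the members, values with arrays of equal number paired stand beside the unpaired ones here.

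In quiescent cells 1 of 8 tested member genes, Myh1, rose with IFT88 siRNA in the unpaired fit and 6 of 8 in the paired fit, while Myh3 and Myh8 passed neither. Unpaired, both tested probe sets of Myh1 rose, 2 of 10 member probe sets, where 2.30% of all tested probe sets rose and 4.13% changed. With replicate numbers paired, 7 of 10 rose, those of Myh1, Myl4, Myl1, Mybph, Myh7 and Mylpf, where 5.42% of all rose. The arrays did not overlap for 6 of 10, all with IFT88KD higher, as for 10.6% of all tested probe sets. The median change was 0.70 log2 for the members and -0.01 for all.

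Myh1 measured 5.576, 4.203 and 4.412 log2 in quiescent control cells and 7.11, 6.30 and 6.73 in quiescent IFT88KD cells. Every IFT88KD array lay above every control array, and the change was 1.98 log2, or 3.95-fold (SE 0.44, limma adjusted p = 0.0113, and 5.5e-04 paired). The call of this probe set rested on single arrays: without IFT88KD replicate 1, control replicate 2 or control replicate 3 its unpaired adjusted p rose above the threshold, to 0.0817 at most. Over all alternatives its adjusted p ran from 2.3e-04 to 0.0817 and its change from 1.72 to 2.40. The quiescent IFT88KD mean of Myh1 was within 0.10 log2 of differentiating control cells, at 6.71 ± 0.40 and 6.81 ± 0.27 (SD, n = 3), and the arrays of these groups overlapped. Other leading probe sets in quiescent IFT88KD cells stayed 1.22 (Myl1) to 3.44 (Myl4) log2 under differentiating control cells.

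Myl4, the embryonic light chain gene, measured 7.003, 6.638 and 6.829 in control and 8.53, 7.58 and 7.84 in IFT88KD quiescent cells. Its change of 1.16 log2 (SE 0.53) had a limma adjusted p of 0.302 unpaired and 0.00177 paired, with no overlap of the arrays. Myl1 went from 9.51, 8.97 and 8.99 to 10.32, 9.51 and 9.80, where the lowest IFT88KD array exceeded the highest control array by less than 0.01 log2. Its change was 0.72 log2 (SE 0.57, adjusted p = 0.655 unpaired and 0.00534 paired). Mylpf went from 9.65, 9.14 and 9.11 to 10.42, 9.58 and 9.70, with overlap, a change of 0.60 (SE 0.57, adjusted p = 0.729 unpaired and 0.00551 paired).

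Myh7, the slow heavy chain gene, measured 5.57, 5.04 and 5.30 in control and 6.32, 5.63 and 6.05 in IFT88KD quiescent cells. Its change was 0.70 log2 (SE 0.41, limma adjusted p = 0.479 unpaired and 0.0151 paired). Mybph rose from 6.85, 6.35 and 6.61 to 7.76, 7.03 and 7.16 in the paired fit, by 0.71 log2 (adjusted p = 0.687 unpaired and 0.0166 paired). The embryonic heavy chain gene Myh3 passed neither fit: it measured 8.51, 7.67 and 7.84 in control and 8.90, 8.32 and 8.44 in IFT88KD cells, a change of 0.55 log2 (SE 0.64, adjusted p = 0.804 unpaired and 0.118 paired). Myh8 was under the 40th percentile on all 6 arrays, at 1.32 to 1.86 log2.

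**Figure D2:**
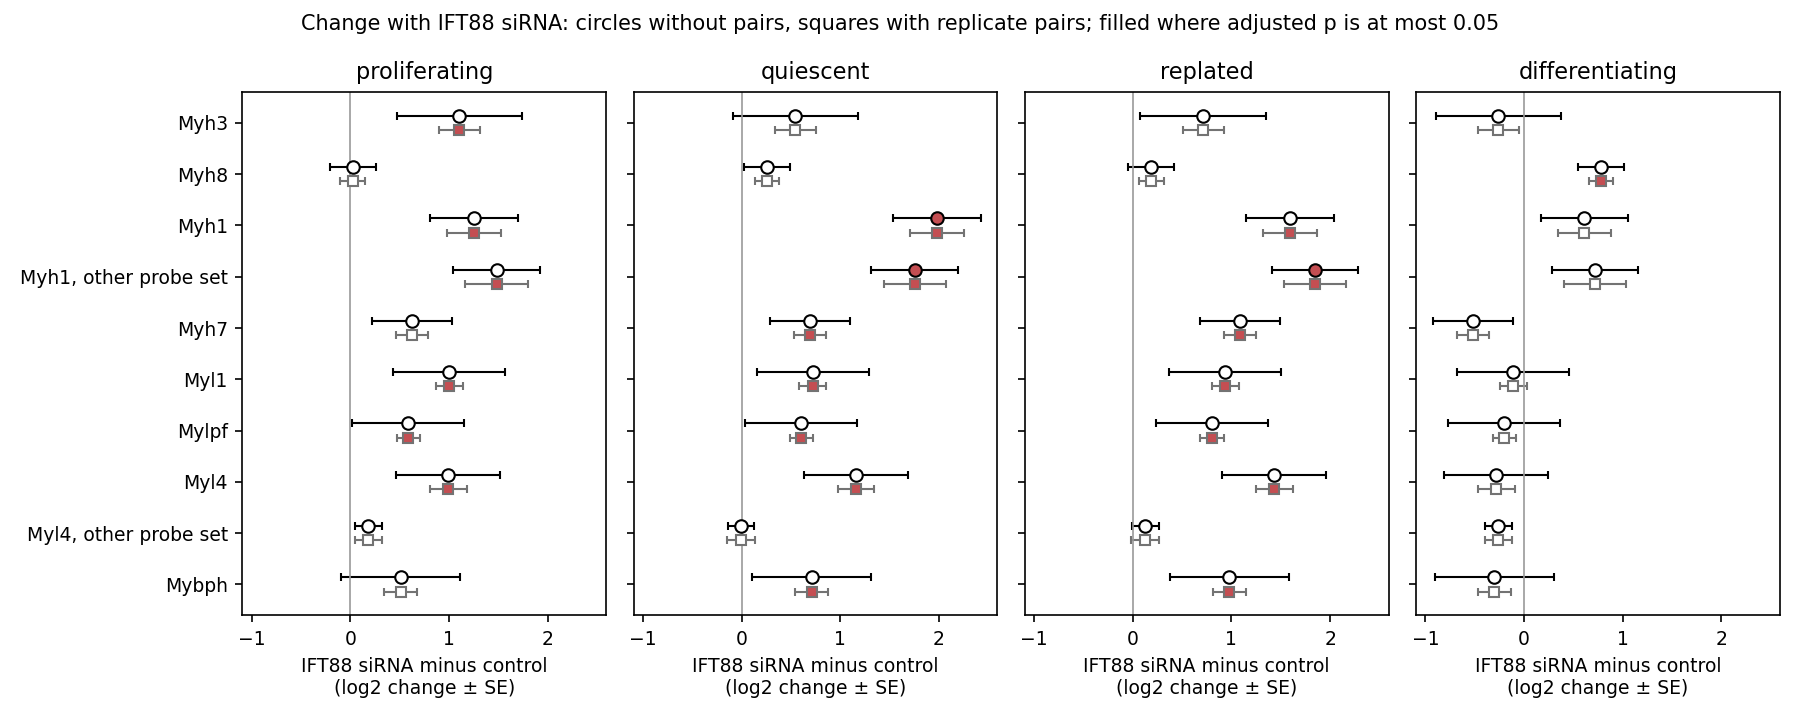
Change with IFT88 siRNA (horizontal axis, log2 change with its SE) of each tested member probe set in the 4 culture states, as circles from the unpaired fit and squares from the fit with replicate numbers paired, filled where the adjusted p is at most 0.05. In quiescent and replated cells the paired SE is smaller and 7 of 10 squares are filled, while the circles are filled for Myh1 alone.

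In cells replated for 2 h all 10 member probe sets had a change above 0 with IFT88 siRNA, where 9 of 10 had in quiescent cells. In the unpaired fit 1 of 10 member probe sets rose with IFT88 siRNA, the second probe set of Myh1, where 1.14% of all tested probe sets rose and 1.86% changed. With replicate numbers paired 7 of 10 rose, where 4.13% of all rose, and they were the probe sets of the same 6 genes as in quiescent cells. Replicate numbers did not clearly pair in this state. Unequally numbered arrays correlated at up to 0.233, above the lowest equally numbered pair at 0.124. The arrays did not overlap for 8 of 10, all with IFT88KD higher, as for 8.06% of all tested. The member median was 0.96 log2.

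The leading probe set of Myh1 measured 4.63, 3.53 and 3.82 log2 in control and 5.81, 5.28 and 5.67 in IFT88KD replated cells. Its change was 1.60 log2 (SE 0.44, limma adjusted p = 0.0721 unpaired and 0.00400 paired), and that of the second probe set 1.85 (SE 0.44, adjusted p = 0.0311 unpaired and 0.00408 paired). The unpaired call of the second probe set was lost without IFT88KD replicate 1 or 3 and without control replicate 2 or 3, with adjusted p up to 0.170. Myl4 went from 5.53, 5.07 and 4.83 to 7.10, 6.19 and 6.42, by 1.43 log2 (SE 0.53, adjusted p = 0.218 unpaired and 7.7e-04 paired). The groups were apart for each of these probe sets.

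Myh7 went from 4.04, 3.80 and 4.12 to 4.92, 4.77 and 5.54 in replated cells, by 1.08 log2 (SE 0.41, limma adjusted p = 0.228 unpaired and 0.00176 paired). Mybph changed by 0.98 (adjusted p = 0.578 unpaired and 0.00427 paired), Myl1 by 0.94 (0.567 and 0.00169) and Mylpf by 0.80 (0.642 and 0.00156). Myh3 measured 7.16, 6.46 and 6.64 in control and 7.76, 7.33 and 7.32 in IFT88KD cells, which did not overlap. Its change of 0.72 log2 passed neither fit (SE 0.64, adjusted p = 0.750 unpaired and 0.0550 paired). In a fit without the proliferating arrays, chosen after their spread was seen, 4 member probe sets rose with IFT88 siRNA in quiescent and 7 in replated cells without any pairing. The share of all tested probe sets that rose in this fit is not at hand, so nothing is drawn from these counts.

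In proliferating cells 0 of 10 member probe sets passed the unpaired limma test, where 0.281% of all tested changed, and 2 of the members had an unadjusted p under 0.05 (5.60% of all). With replicate numbers paired 6 of 10 rose, where 0.649% of all rose: both probe sets of Myh1 and the leading ones of Myh3, Myl1, Myl4 and Mylpf. Myh3 measured 2.85, 5.12 and 6.33 in control and 4.67, 5.30 and 7.66 in IFT88KD proliferating cells, so the groups overlapped although each IFT88KD array was above the control array of its number. Its change was 1.11 log2 (SE 0.64, adjusted p = 0.988 unpaired and 0.0202 paired). Myl1 changed by 1.004 log2 (adjusted p = 0.982 unpaired and 0.00357 paired), from 4.04, 5.87 and 7.22 to 5.56, 6.39 and 8.20. Myh1 changed by 1.25 (adjusted p = 0.557 unpaired and 0.0415 paired), from 1.18, 1.47 and 1.71 to 1.90, 2.13 and 4.08, with only the last of these arrays above the 40th percentile. The paired count of 6 became 1 without pair 1 or without pair 3 and 8 without pair 2, so single pairs set it. Unpaired, the change of Mybph, Mylpf and Myh7 in proliferating cells turned negative without IFT88KD replicate 3 (to -0.41, -0.12 and -0.02 log2), and that of Mybph and Mylpf without control replicate 1 (to -0.31 and -0.26).

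In differentiating cells the direction of most members was turned, and differences were small. In the unpaired limma fit 0 of 10 passed, where 0.0505% of all tested changed, and 1 member had an unadjusted p under 0.05 (4.23% of all). Paired, Myh8 rose, where 0.274% of all rose: it measured 4.17, 3.63 and 4.67 in control and 5.40, 4.22 and 5.20 in IFT88KD cells, a change of 0.78 log2 (SE 0.23, adjusted p = 0.566 unpaired and 0.0211 paired). The arrays overlapped, each IFT88KD array was above the control array of its number, and the call was lost whichever pair was left out. Myh1 was also higher in all 3 pairs, at 7.69, 6.83 and 7.75 against 6.79, 6.54 and 7.09, by 0.61 log2 (adjusted p = 0.9997 unpaired and 0.431 paired). The other 7 probe sets were lower in all 3 pairs, by differences from -0.52 for Myh7 to -0.11 for Myl1, and passed neither fit. Myh7 measured 9.25, 8.95 and 8.71 in control and 8.82, 8.43 and 8.10 in IFT88KD cells (adjusted p = 0.224 paired).

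Whether the siRNA effect differed between states was tested directly. In the unpaired limma fit 0 of 10 member probe sets passed for any of the 4 pairs of states compared. For differentiating against quiescent cells 0.786% of all tested passed, and 2 members had an unadjusted p under 0.05 (8.17% of all). With replicate numbers paired, 5 member probe sets had a lower effect in differentiating than in quiescent cells, where 1.96% of all tested did. These were Myl4 by -1.44 log2 (adjusted p = 0.0101), Myh7 by -1.22 (0.0115), Mybph by -1.01 (0.0386), Myl1 by -0.83 (0.0395) and Mylpf by -0.80 (0.0198). Myh1 had a difference of -1.37 (adjusted p = 0.0746) and Myh8 of 0.52 (adjusted p = 0.146). The Ift88 transcript itself changed by -0.69 log2 in quiescent and by -0.01 in differentiating cells. These differences therefore do not compare states with an equal loss of Ift88 mRNA. Leaving out any 1 pair of arrays of these states brought the count of 5 to between 1 and 3, the lowest without differentiating pair 3. For quiescent against proliferating cells 0 members passed by either fit (0.851% of all unpaired and 2.44% paired), and 0 had an unadjusted p under 0.05 (7.52% of all). For replated against quiescent cells 0 passed by either fit (0.0144% and 0.0793% of all), and 0 had an unadjusted p under 0.05 (2.99%). For differentiating against proliferating cells 0 passed by either fit (0% and 0.108% of all), and 2 had an unadjusted p under 0.05 (3.22%).

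Other measurements moved with the siRNA in the same states. All 5 cycling markers were higher in IFT88KD cells in the quiescent (median 1.87 log2) and the replated state (median 1.98). Their mean level was 5.74 to 6.21 in quiescent IFT88KD and 3.93 to 4.46 in quiescent control arrays. Of 3 tested macrophage markers 2 were lower in each of these states (medians -1.32 and -1.07), by either fit. In quiescent cells 1 of 4 tested fibroblast markers was lower unpaired and 3 of 4 paired, and 1 of 4 tested smooth muscle markers unpaired and 2 of 4 paired. In replated cells 0 fibroblast markers were lower unpaired and 1 paired, and 1 smooth muscle marker was higher, paired only. The skeletal muscle markers were above the 40th percentile throughout, with 4 of 6 higher in quiescent IFT88KD cells when paired and 0 of 6 unpaired. Their part in the myosin differences was not tested.

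The probe sets of Myl4 disagreed. The leading one, 1422580_at, was above the 40th percentile on all 24 arrays, and the other, 1457126_at, on the 6 differentiating arrays only. In quiescent cells the latter measured 2.12, 1.59 and 2.03 in control and 1.83, 2.00 and 1.91 in IFT88KD cells, a change of -0.01 log2 (SE 0.14) where the leading probe set changed by 1.16. In replated cells these changes were 0.12 and 1.43. With differentiation both rose, 1457126_at by 3.56 log2 (SE 0.14), from 1.43, 1.37 and 1.40 to 4.963, 4.921 and 4.997, and the leading probe set by 7.11. No p-value is given for this rise of 1457126_at, which passed the filter through differentiating arrays only. With IFT88 siRNA in differentiating cells 1457126_at and the leading probe set were alike, at -0.26 and -0.28. The rise of Myl4 in quiescent and replated IFT88KD cells is thus carried by 1 of 2 probe sets, the other lying under the filter there.

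The probe sets of Myh1 fell into a pair that moved together and 1 that stayed at the floor. 1427520_a_at and 1427868_x_at changed by 1.98 and 1.75 log2 with IFT88 siRNA in quiescent cells and by 5.36 and 5.49 with differentiation. The third, 1452465_at, stayed between 0.87 and 1.44 log2 on all 24 arrays, and the platform annotation ties it to the same sequence record as 1427520_a_at. Probe sets of the x_at kind hold probes that can match other transcripts, and the adult fast heavy chain genes are close paralogs. The signal assigned to Myh1 could therefore include RNA of another fast heavy chain gene. Probe sets of 1 gene for Myh2, Myh4, Myh6 and Myl7 did not pass the filter, and Myh7b and Myh13 had none.

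**Figure D3:**
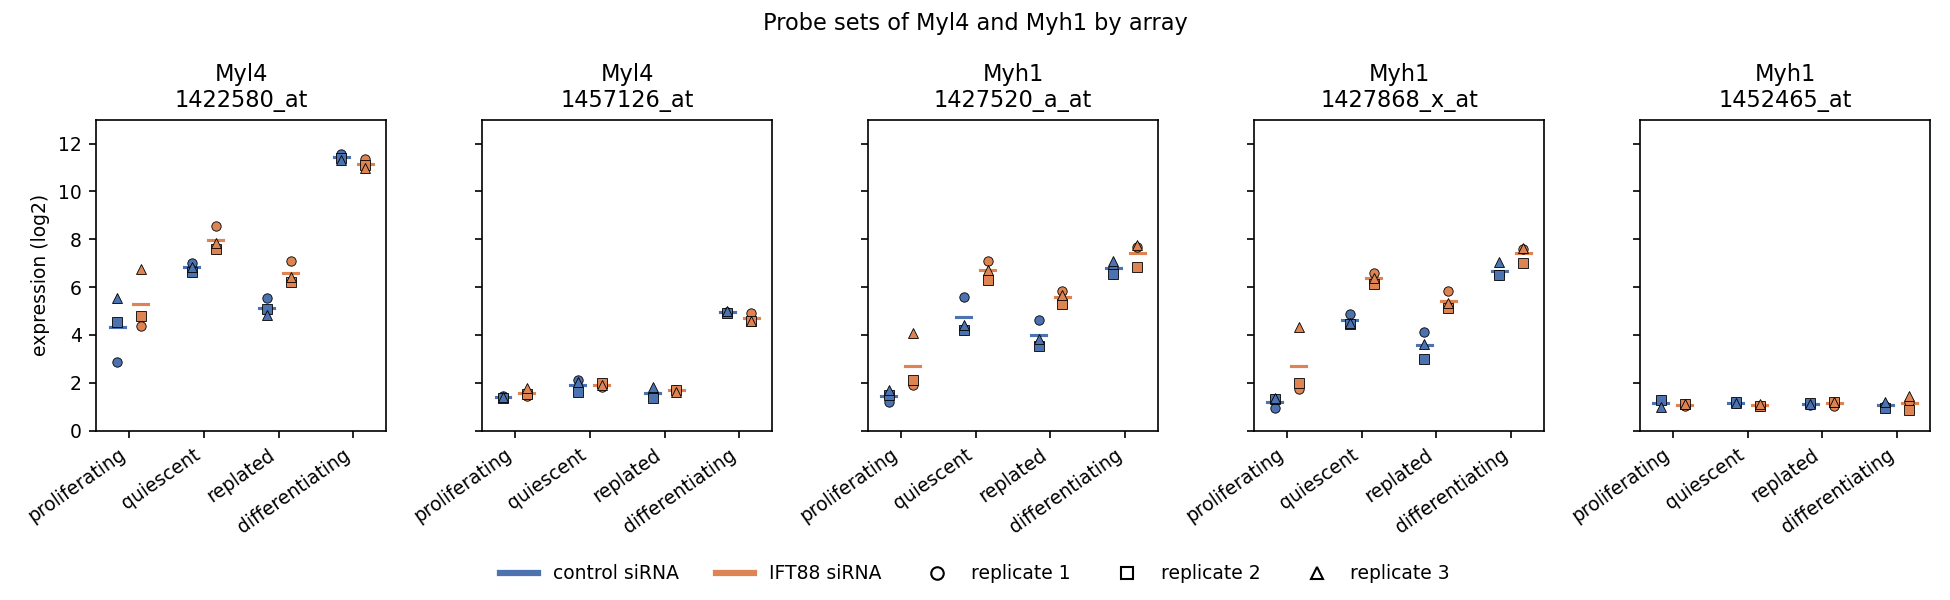
Log2 expression (vertical axis) on every array of the 2 probe sets of Myl4 and the 3 of Myh1, by culture state (horizontal axis), in blue for control and orange for IFT88 siRNA, with a symbol for each replicate number and bars at group means. 1457126_at leaves its floor in differentiating cells only, and 1452465_at stays at 1.44 log2 or less on every array.

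In quiescent and replated cells Myh1 changed more with IFT88 siRNA than the other members did, which was noticed in these values and is given without a test. Because Myh1 was picked for this change, its excess over other members there follows from the choice and is no separate result. In differentiating cells Myh8 changed more, by 0.78 log2 against 0.61 and 0.72 for the probe sets of Myh1. Myh8 is left out of what follows because it was under the 40th percentile outside differentiation. The level of Myh1 minus that of another member on the same array cancels only a shift of equal log2 size in both. The size of such a difference within an array also depends on the probes. From control to IFT88KD quiescent cells this difference rose by 0.82 log2 against Myl4, by 1.26 against Myl1, by 1.27 against Mybph, by 1.29 against Myh7, by 1.38 against Mylpf and by 1.44 against Myh3. In replated cells the increases were 0.16 (Myl4) to 0.88 (Myh3), and in differentiating cells 0.72 (Myl1) to 1.13 (Myh7). Control and IFT88KD arrays were apart in all 3 states against Mybph, in 2 against Myh3, Myh7, Myl1 and Mylpf, and in 1 against Myl4. No share over all probe sets is at hand for such differences. Against Mybph, quiescent control arrays ran from -2.20 to -1.27 and IFT88KD arrays from -0.73 to -0.43. In proliferating cells, where Myh1 had 0 of 3 control arrays above the 40th percentile, the arrays overlapped against Mybph. They ran from -3.05 to -0.43 in control and from -1.51 to -0.63 in IFT88KD cells.

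**Figure D4:**
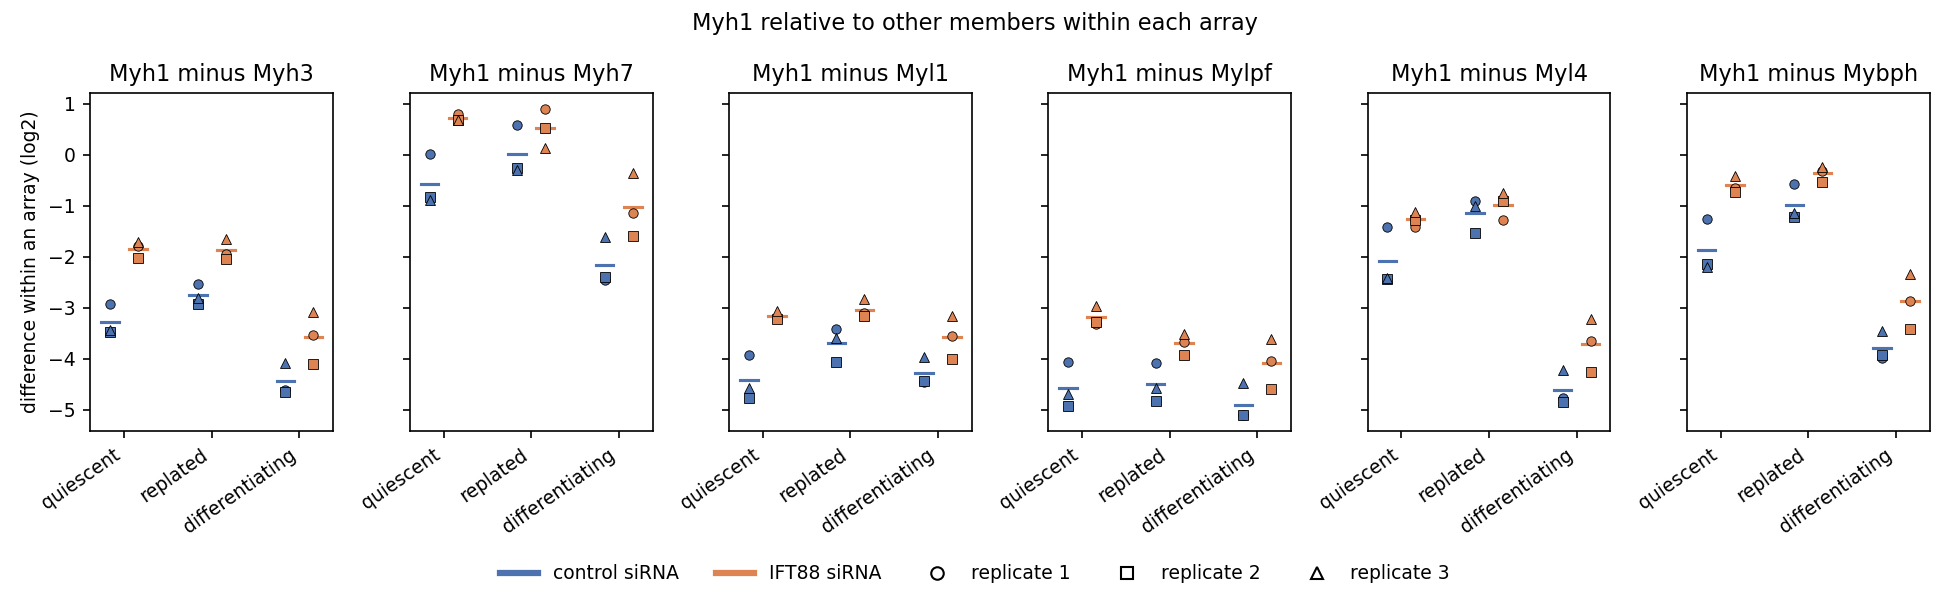
Level of Myh1 minus the level of another member on the same array (vertical axis, log2), in quiescent, replated and differentiating cells (horizontal axis), in blue for control and orange for IFT88 siRNA, with a symbol for each replicate number and bars at group means. The orange bars lie above the blue ones in every panel and state, by 0.16 to 1.44 log2. Myh1 was picked after its large change was seen.

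Genes of the wider sarcomere were counted from a list of mainly thin filament and Z disc genes, of which 29 of 32 were tested. It also held muscle genes of other structures, among them Casq2, Myom1, Myom2 and Ckm. With differentiation 26 rose and 2 fell in control cells, led by Casq2 (6.58 log2), a calcium store protein, Myom2 (6.32), an M-band protein, Tnnc2 (6.25), the fast troponin C gene, and Ckm (6.13), muscle creatine kinase. With IFT88 siRNA in quiescent cells 1 rose unpaired and 15 paired, the list's median being 0.50 log2. The unpaired call was Actn2, the Z disc alpha-actinin gene, at 0.99 log2 (SE 0.21, limma adjusted p = 0.00841). Its quiescent control level of 2.19 log2 had 0 of 3 arrays above the 40th percentile, so the size of that change is not exact. In replated cells these counts were 0 and 16, and in proliferating cells 0 and 4. In differentiating cells 0 changed by either fit and 1 of 29 was above 0, with a median of -0.26.

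Of 11 tested regulators, Mef2c, a MEF2 factor gene, rose with IFT88 siRNA in the quiescent state, the change being 1.04 log2 (SE 0.29, limma adjusted p = 0.0445). Paired, 4 of the 11 rose in quiescent and 2 in replated cells. Myog, the myogenin gene, changed by 0.71 (adjusted p = 0.686 unpaired and 0.0460 paired). With differentiation of control cells Mef2c rose by 3.78 and Myog by 3.74 log2, while the inhibitor genes Id3 and Id2 fell, by 4.14 and 3.25. Among 4 tested genes of myosin chaperones and kinases, Mylk, a myosin light chain kinase gene named here after its value was seen, rose with IFT88 siRNA in the quiescent state, the change being 0.75 log2 (SE 0.17, limma adjusted p = 0.0115). It was the 1 unpaired call of this list there, and 2 of 4 passed paired.

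Genes listed as non-muscle and smooth muscle myosins, which mostly serve contractility outside sarcomeres, were counted in the same way. None of the 6 tested genes (Myh9, Myl6, Myl6b, Myl9, Myl12a and Myl12b) passed the unpaired test with IFT88 siRNA in any state, and paired only Myl6 did, with a change of -0.53 log2 in quiescent cells (adjusted p = 0.116 unpaired and 0.0219 paired). With differentiation 1 rose, Myl6, the non-muscle essential light chain gene, by 0.81 log2, and 0 fell. On entry into quiescence Myl6 rose by 1.01 while Myl9 fell by 1.52, Myl6b by 0.69, Myh9 by 0.40 and Myl12a by 0.33. Myh10 had no probe set of 1 gene, and Myh11 and Myh14 did not pass the filter. Of the other striated muscle genes only Mybpc3, a myosin-binding protein C gene, was tested, and its changes with IFT88 siRNA were -0.14 to 0.02 log2 with no call. Mybpc1 and Mybpc2 had no probe set of 1 gene.

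Over the 8 group means, leading probe sets of the members correlated with each other at 0.715 (Myh1 and Myh8) to 0.998 (Myh7 and Mybph). Of 8589 other genes, those whose group means were most like the mean standardised profile of the 8 tested members were Tnnc2 (Pearson r = 0.998), Casq2 (0.998), Tnnc1 (0.997), Acta1 (0.997) and Pgam2 (0.991), the last the muscle phosphoglycerate mutase gene. Each correlation runs over 8 group means, with both genes measured on the same arrays, and is a description only.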

How the data were processed

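RNA of 24 samples was measured on Affymetrix mouse arrays after TRIzol extraction and biotin labelling of cRNA from 8 ug of total RNA, per the labels' protocols. The submitters' design text names mouse 420A arrays, and probe sets were named through the annotation given for the platform. The authors deposited 1 table of log2 expression values. Per the submitters' processing notes, the tools included affy, GCOS and Expression Console. Versions and the normalisation method are not given in the sources used here. All 24 columns of the table were mapped by title, and 0 were of other samples.

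Probe sets assigned to 1 gene and above the 40th percentile of the array on at least 3 arrays (13866 of 20380) were fitted in 1 model of 8 groups with limma 3.58.1 in R 4.3.3. The 12 contrasts were adjusted by Benjamini-Hochberg over all 13866, with a threshold of 0.05. The probe set of a gene with the highest mean led it, x_at kinds set aside. Replicate numbers were checked for pairing: deviations of equally numbered IFT88KD and control arrays correlated at 0.124 to 0.688 in the 3 growth medium states and at 0.414 to 0.707 in differentiating cells. Between control states they correlated at 0.150 to 0.450 (replated and quiescent), 0.261 to 0.429 (differentiating and proliferating) and 0.111 to 0.289 (differentiating and quiescent), but at 0.0391 to 0.0886 for quiescent and proliferating cells. Paired fits took number within state as a block. Alternatives were other scalings, filters, weights, fewer arrays and leaving out each array in turn. No pairs of arrays held identical values. The program was tested on simulated data.

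The members and lists were chosen with earlier results of these data known. Named genes were all members, the other myosins, list genes past the threshold in quiescent or differentiating IFT88KD cells, the 4 largest differentiation changes of the thin filament and regulator lists, and the 5 genes most like the members. Promoters came from RefSeq (GRCm38.p6). Coordinates of probe sets were not used here. Array number limits the precision. Plots were drawn with Python 3.11.15 and matplotlib 3.10.9.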

Additional observations from a re-analysis of the deposited data

How the results depend on the processing

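Counts of members past the threshold with IFT88 siRNA depended on how the spread was estimated. With the replicate block they were 6 instead of 0 in proliferating, 7 instead of 2 in quiescent, 7 instead of 1 in replated and 1 instead of 0 in differentiating cells, and 5 instead of 0 for the difference of effects between differentiating and quiescent cells. With the block on quiescent against proliferating control cells, where numbers did not pair, the count stayed 9. The fit without the proliferating arrays, chosen after seeing the data, gave 4 in quiescent and 7 in replated cells, with no share of all probe sets at hand to set beside them. Taking 1 leading probe set per gene gave 1 in quiescent and 0 in replated cells, array weights gave 4 in replated cells, and arrays of the compared groups only gave 0 in replated cells. From quiescent to replated control cells the count of 6 lower became 0 with quantile normalisation and 1, higher, with each array centred on its median: Myl4 1457126_at then changed by 0.50 log2 (SE 0.14, adjusted p = 0.00523). In that comparison 1396 of all probe sets rose and 8776 fell as deposited, 3950 and 4558 with quantile normalisation, and 6545 and 2563 with centring. From proliferating to quiescent cells 5366 rose and 4219 fell as deposited and 4066 and 5535 with centring, where 8 members rose instead of 9. Leaving out 1 array at a time gave 0 to 2 in quiescent and 0 to 2 in replated IFT88KD cells, 2 to 5 from quiescent to replated control cells, and 0, 9 or 10 as with all arrays in the other comparisons. With the block and 1 pair left out, the counts were 1 to 8 in proliferating, 4 to 6 in quiescent, 7 in replated and 0 in differentiating cells, 1, 2 or 3 for differentiating against quiescent effects, 0, 1 or 2 for quiescent against proliferating and 0 or 6 for differentiating against proliferating effects (6 without proliferating pair 2). Shares of all tested probe sets for the IFT88KD counts are given for the main fit and the full block fit only. The counts of the other alternatives are therefore not set against a background, and only their dependence on the fit is described. All leading probe sets kept the sign of their IFT88KD change in quiescent, replated and differentiating cells under every alternative run, while Mybph, Mylpf and Myh7 did not in proliferating cells. Members at the floor of the arrays (Myl2, Myl3, Myh8 outside differentiation) allow no statement on small changes.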

Other observations

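The platform annotation assigns 2 probe sets to both Myh7 and Myh6, which were outside the comparisons. The first, 1448554_s_at, measured 3.76 ± 0.47 log2 in quiescent control and 4.46 ± 0.40 in quiescent IFT88KD cells, and 7.95 ± 0.36 in differentiating control and 7.46 ± 0.40 in differentiating IFT88KD cells (SD, n = 3). Its groups stood in the same directions as those of the Myh7 probe set, while the Myh6 probe set of 1 gene did not pass the filter. The other, 1448827_s_at, stayed at the floor, with group means from 0.76 to 1.43 log2, at 0.96 in quiescent and 1.43 in differentiating control cells.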
